A study of Mus musculus with 10 samples.

Results

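The genes described here code for potassium, calcium, sodium and TRP (transient receptor potential) channels, measured by RNA-seq in 5 cell lineages sorted from adult mouse lung mesenchyme. They were chosen by symbol, as every gene whose name begins with Kcn, Cacna, Cacnb or Cacng, with Scn and a digit, or with Trpa, Trpc, Trpm or Trpv and a digit. Of 14854 genes with a value in all 10 libraries, 79 met this rule. The set holds pore-forming and accessory subunits and a few genes with a channel-like name that form no pore, among them Trpc4ap (an adaptor protein) and Kcnrg.

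The 10 libraries fall into 5 groups of 2, sorted by FACS. In Axin2CreERT2:tdT:PdgfraEGFP mice, the Axin2:Pdgfra group carried both labels, the Axin2 group the tdT label, the Pdgfra group the GFP label, and the Negative group neither. The fifth group, Wnt2, came from Wnt2CreERT2:R26REFYP mice, so that mouse line and lineage cannot be told apart in any comparison with it. CreERT2 is a Cre recombinase that tamoxifen switches on and that marks a cell and its descendants, so the Axin2 and Wnt2 labels record past as well as present activity of those genes. The sources used here do not give the strain, the labelling schedule, the sort gates or how many animals stand behind a library. All mice were adult. Whether the 2 libraries of a lineage are from different animals is not stated. The Negative libraries differed in sex, so they are not from the same animal. Xist read 17.72 and the Y-linked Ddx3y 1.79 in Negative 0, against 8.57 and 10.74 in Negative 2. In Wnt2 1 they read 17.04 and 8.15, against 7.81 and 11.48 in Wnt2 2, so these libraries are not both from 1 and the same animal. Whether Wnt2 1, which has both signals, holds cells of more than 1 animal was not tested. Both Pdgfra libraries had the female pattern (Xist 17.47 and 17.32, Ddx3y 1.55 and 1.0), and the part of sex in Pdgfra minus Negative was not tested. A p-value here measures the spread between the samples at hand, part of which may be technical.

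Ion channels set the membrane potential and the calcium entry of a cell. In smooth muscle cells and pericytes, potassium channels hold the membrane negative, L-type calcium channels open when it depolarises, and the calcium that enters drives contraction, so that channel genes are part of what distinguishes contractile cells. Fibroblasts are not excitable in this sense, but they too carry voltage-gated and TRP channel genes, whose products are studied in calcium signalling and in responses to stretch.

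The deposited value is 1 number per gene and library, read here as log2 of a normalised signal. It is not known to be scaled to gene length, so values are compared between libraries for 1 gene and not between genes. Read depth is unknown. The lowest value differs from library to library, between 1 (Pdgfra 2, Wnt2 1 and Wnt2 2) and 2.67 (Negative 2), and genes sitting there are called floored below. Between 3 (Pdgfra 2) and 34 (Negative 2) of the 79 channel genes lay at it, beside 2.09% and 18.4% of all genes. The median channel gene read between 6.33 and 7.65, beside 9.10 to 9.11 for all genes. Genes with at least 6 in at least 2 libraries were tested, which kept 74 of the channel genes. Trpm2, Trpm3, Kcnn2, Kcnk7 and Kcnb2 each reached 6 in 1 library and were left out. Scn8a passed through both Wnt2 libraries (6.0 and 7.53) and through no other group, and was not called in any comparison.

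Markers of other cell types varied with the groups. Pericyte markers (13 genes, none at the lowest value in any library) had a summed level, as log2, of 19.05 and 19.37 in the Axin2 libraries, 18.60 and 17.53 in Negative, and 14.71 to 15.63 in the other 6. Smooth muscle markers (13 genes) stood at 18.06 and 18.10 in Axin2 and at 15.94 to 16.79 elsewhere, but these genes differed. Their median was 13.57 and 14.0 in Axin2, 12.11 and 11.36 in Negative, and 11.55 and 10.82 in Axin2:Pdgfra. It was lower in Pdgfra (10.70 and 10.54) and Wnt2 (9.58 and 9.14). Mylk, which weighs heavily in the sum, read 15.14 and 15.19 in Axin2 and 15.50 to 15.92 in Pdgfra and Wnt2. Fibroblast markers (16 genes) were lowest in Negative, at 16.89 and 17.16, and stood at 17.56 to 18.92 elsewhere. The Negative libraries were also highest for alveolar type 1 markers (10 genes, 18.44 and 18.38, against 14.03 to 16.30) and for erythroid markers (5 genes, 16.50 and 16.02, against 6.95 to 11.31). Mesothelial markers (6 genes) stood at 12.73 and 13.15 in Axin2, 13.62 in both Negative libraries and 8.49 to 10.46 in the other 6. The Schwann cell and neuron list (4 genes) stood at 10.40 and 10.72 in Axin2, 10 and 9.02 in Negative and 3.92 to 7.77 elsewhere, but its genes differed. Of them, Sox10 read 8.45 to 9.38 in Axin2 and Negative and 1.0 to 2.06 elsewhere, whereas S100b was floored in both Negative libraries and Gfra3 in Negative 2. Endothelial markers (13 genes) ranged from 14.56 to 17.26, highest in Negative 2. Negative 2 and Wnt2 2 had the male pattern, with low Xist and high Y-linked genes, and Wnt2 1 had both Xist and Y-linked signal. In these sorted populations, fewer cells of a type and less RNA per cell cannot be told apart.

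**Figure D1:**
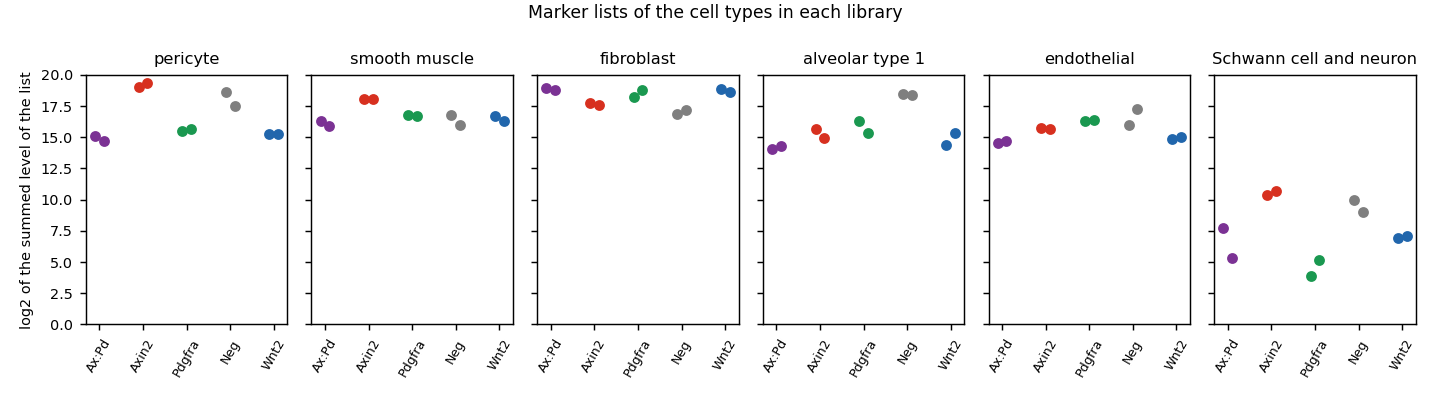
Summed level of 6 marker lists (y axis, log2 of the sum of the list's linear levels) in the 5 lineages (x axis: Ax:Pd is Axin2:Pdgfra, Neg is Negative), with 1 dot per library. Pericyte markers stood at 17.53 to 19.37 in the Axin2 and Negative libraries and at 14.71 to 15.63 in the other 6.

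Kcnk3, Kcnq5 and Trpc6 were high in the Axin2 and Negative libraries and lower in the other 3 lineages, and Cacna1d, Scn3a and Scn7a had the opposite pattern. An F-test over the 5 groups (limma, Benjamini-Hochberg adjusted over 14177 genes, adjusted p under 0.05, the threshold for every gene said here to be called) called 23 of the 74 channel genes tested, or 31.1%, where 8.2% of all genes tested were called. By family these were 7 of 17 voltage-gated potassium genes, 3 of 5 calcium channel alpha1 genes, 3 of 8 calcium channel auxiliary genes, 2 of 6 calcium- or sodium-activated potassium genes, 2 of 6 potassium leak (K2P) genes, 2 of 6 sodium channel alpha genes, 2 of 4 TRPC genes, 1 of 6 inward rectifiers and 1 of 4 TRPM genes. None of 6 potassium channel accessory genes, 3 sodium channel beta genes and 3 TRPV genes was called in that test (limma; 1, 1 and 2 at an unadjusted p under 0.05). The calls of Cacna1d, Kcnq5, Scn7a, Kcns3, Kcna1, Kcnk3 and Scn3a held in all 10 fits that left out 1 library, those of Cacna2d3 and Kcnma1 in 0 of 10, and with values under 6 raised to 6 the count was 16. Of those 7, Cacna1d, Kcnq5, Scn7a, Kcns3 and Scn3a were not called once limma's variance prior was fitted without a trend and without robust weighting, and 7 of the 23 F-test calls were left in that fit, Kcna1 and Kcnk3 among them. Counts under alternative fits, here and below, stand without the share of all genes called in the same fit. A change in them is therefore no result about channel genes. The count fell to 10 without Axin2 1, Axin2 2 or Wnt2 1, to 13 without Axin2:Pdgfra 2 or Wnt2 2, and to 14 without Pdgfra 1.

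**Figure D2:**
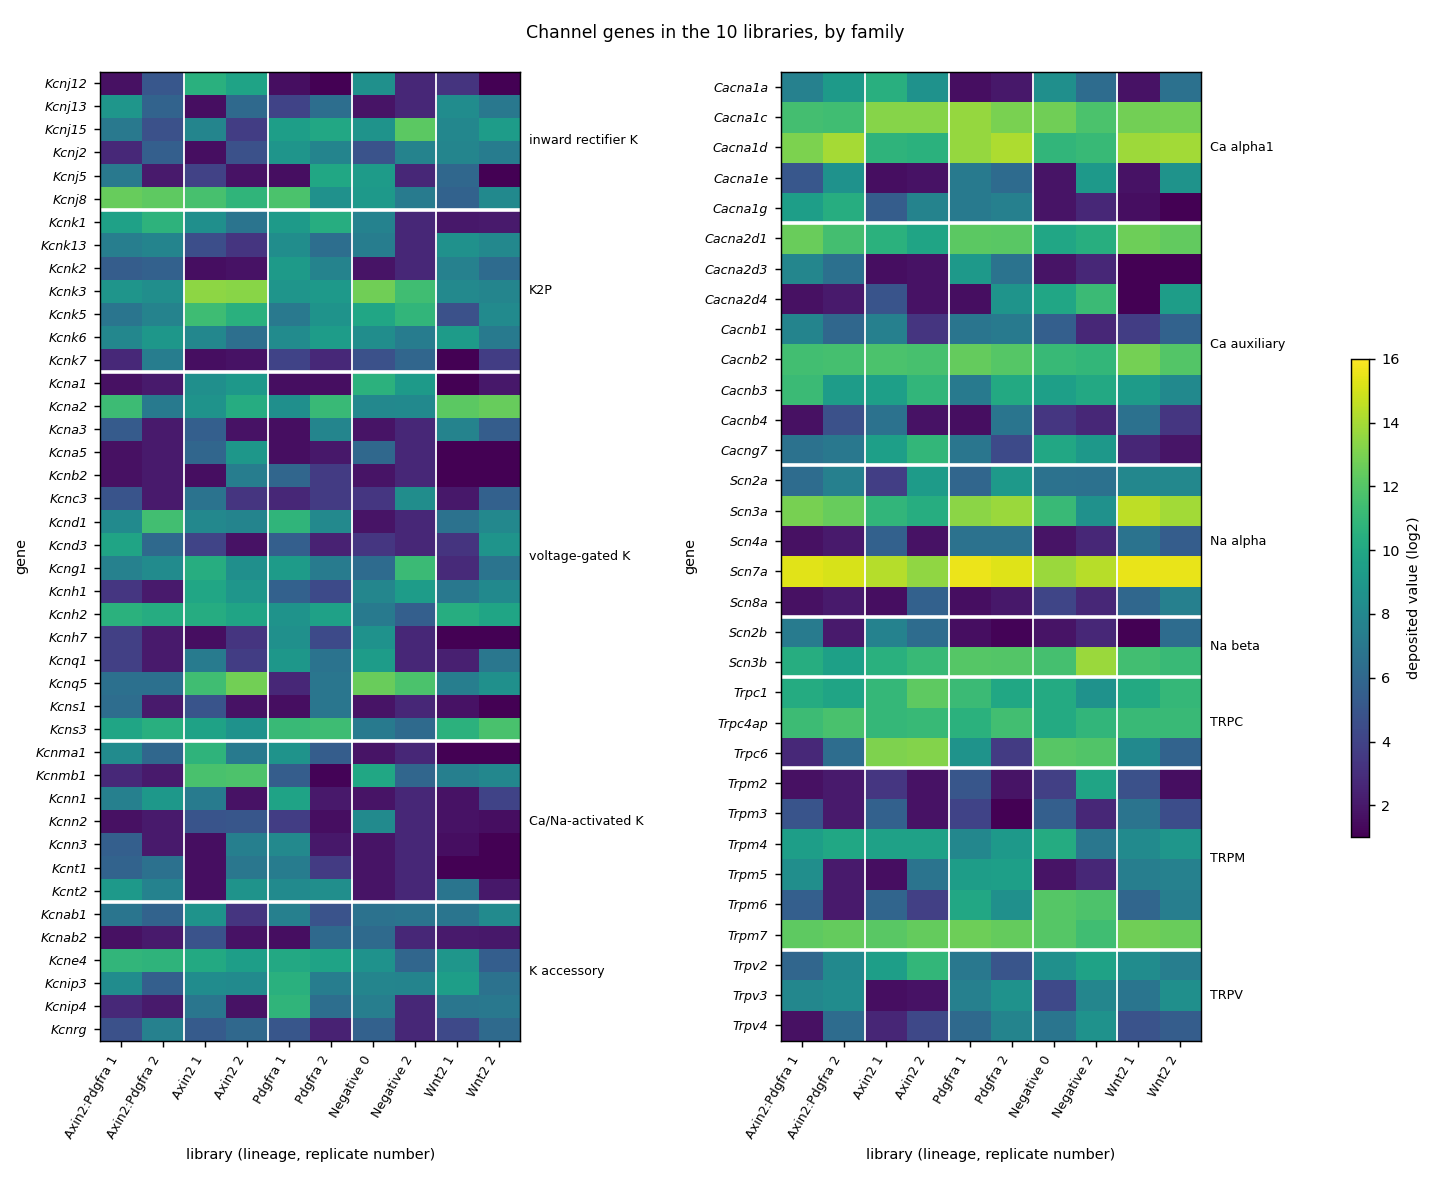
Deposited value, read as log2 (colour), of the channel genes described here (rows, grouped by family) in the 10 libraries (columns, by lineage and replicate number). Scn7a is bright in every library (13.49 to 15.58), whereas Kcnk3, Kcnq5 and Trpc6 are brightest in the 4 Axin2 and Negative libraries.

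The Pdgfra label could be compared in 2 pairs of groups that share no library. With the Axin2 label present (Axin2:Pdgfra minus Axin2), 2 of 74 channel genes were higher, beside 0.924% of all genes, and 6 were lower, beside 1.38%. Cacna1d and Scn7a were the higher genes, and Kcnk3, Trpc6, Kcnmb1, Kcnq5, Kcnh1 and Cacna1c the lower ones. Without the Axin2 label (Pdgfra minus Negative), 6 channel genes were higher, beside 2.03% of all genes, and 3 were lower, beside 0.875%. Cacna1d, Scn3a, Kcns3, Cacna2d1, Scn7a and Kcnd1 were the higher genes, and Kcnk3, Kcnq5 and Kcna1 the lower ones. Cacna1d, Scn7a, Kcnk3 and Kcnq5 were thus called in both comparisons, each in 1 direction. Both Cacna1d calls held in every fit that left out 1 library, but not with the variance prior fitted without trend and robust weighting (adjusted p = 0.0823 and 0.0661). The count of 8 with the Axin2 label was 1 without Axin2 2, 3 without Axin2 1 or either Axin2:Pdgfra library, and 4 without either Wnt2 library, and the count of 9 without it was 2 without either Pdgfra library.

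The test of the difference between these 2 comparisons (their interaction, limma) called 0 of 74 channel genes, beside 0% of all genes, with 7 channel genes at an unadjusted p under 0.05. Across the 74 genes, the differences in the 2 comparisons had a Pearson correlation of 0.748, beside 0.288 over all 14177 genes. This value describes the spread over genes, and genes are no replicates. In all 4 libraries with the Pdgfra label, 9 channel genes (12.2%) lay above all 4 without it, beside 4.9% of all genes. The 9 were Cacna1d, Cacna2d1, Cacna2d3, Kcnd1, Kcnk1, Kcnk2, Kcns3, Scn3a and Scn7a. Another 12 (16.2%) lay below, beside 3.96% of all genes, among them Cacng7, Kcna1, Kcna5, Kcnh1, Kcnk3, Kcnk5, Kcnmb1, Kcnq5, Trpc6 and Trpv2. Kcna5 was floored in Negative 2 at 2.67 and read 1.55 to 2.06 with the label, so its order there is not known. The share of all genes was counted in the same way, with floored values kept. The lower levels moved with the pericyte list, the mesothelial list and the Schwann cell and neuron list, as given above. The higher levels moved with the fibroblast list, which holds Pdgfra itself. That list stood at 18.25 to 18.92 in the 4 libraries with the Pdgfra label and at 16.89 to 17.71 in the 4 without it. The part of other cell types in these differences was not tested.

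**Figure D3:**
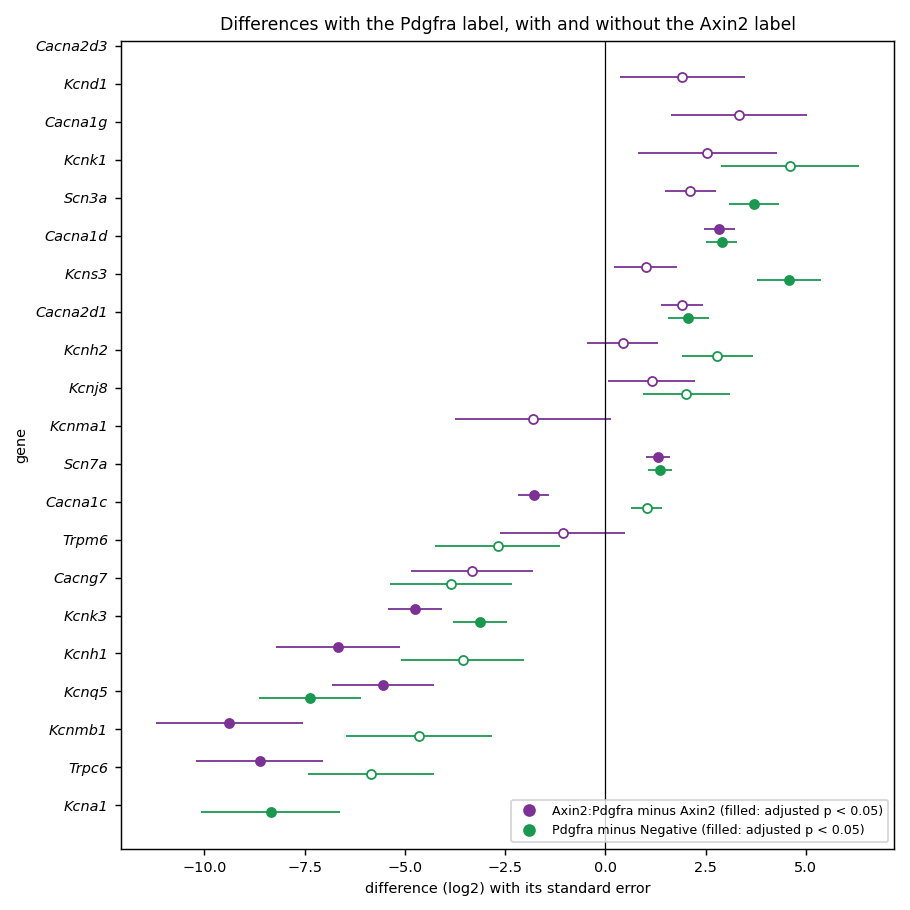
Difference in log2 value with the Pdgfra label (x axis, with its standard error) for 21 of the 23 channel genes that differed among the lineages, with the Axin2 label (purple) and without it (green). Filled dots passed the test, and 6 differences are not drawn because both libraries of 1 group were floored. Kcnk3 and Kcnq5 lie left of 0 and Cacna1d and Scn7a right of 0 in both colours, filled each time.

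The Axin2 label was compared in the same way. Between Axin2:Pdgfra and Pdgfra, limma called 0 of 74 channel genes higher, beside 0% of all genes, and 0 lower, beside 0.0423%, with 1 and 7 at an unadjusted p under 0.05. Between Axin2 and Negative it called 0 higher, beside 0.24% of all genes, and 0 lower, beside 0.36%, with 8 and 6 at an unadjusted p under 0.05. In the Wnt2 lineage, compared with the mean of the other 4 groups, 2 channel genes were higher, beside 0.719% of all genes, and 5 were lower, beside 1.44%. Cacna1d and Scn3a were the higher ones, and Kcnk3, Kcnj8, Kcnk1 and Cacng7 were among the lower ones. Sex was not balanced in this comparison. The Y-linked Ddx3y read 8.15 and 11.48 in Wnt2, 10.74 in Negative 2, and 1.0 to 2.06 in the rest. The part of sex in the Wnt2 differences was not tested. The Wnt2 comparison uses the libraries of both Pdgfra comparisons as its reference, and its count was 0 without either Wnt2 library, 4 without Axin2 2 or Pdgfra 1, and 3 with values under 6 raised to 6.

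The calls in these contrasts depended on how the variance was modelled. With the prior fitted without trend and robust weighting, 2 of the 8 calls in Axin2:Pdgfra minus Axin2 were left (Kcnk3 and Kcnh1), 2 of the 9 in Pdgfra minus Negative (Kcns3 and Kcna1) and 1 of the 7 in Wnt2 (Cacng7). Library weights ended 5 calls in Pdgfra minus Negative, those of Kcnd1, Scn7a, Cacna2d1, Kcna1 and Kcnk3. A fit of the groups of the contrast alone ended the calls of Scn7a, Cacna1c and Kcnh1 in Axin2:Pdgfra minus Axin2 and of Kcnd1, Cacna2d1 and Kcna1 in Pdgfra minus Negative.

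Among inward rectifiers, which pass potassium more readily into the cell than out of it, Kcnj8 was called. Kcnj8 is the pore subunit of the vascular ATP-sensitive potassium channel. It read 12.50 and 12.29 in Axin2:Pdgfra, 11.65 and 10.84 in Axin2, 11.78 and 8.58 in Pdgfra, 9.07 and 7.25 in Negative, and 5.69 and 8.11 in Wnt2. Pericyte markers were low in Axin2:Pdgfra (14.71 and 15.14), the group in which Kcnj8 read highest. Every Axin2:Pdgfra and Axin2 library lay above every Negative and Wnt2 library, while the 2 Pdgfra libraries fell on either side. Wnt2 was lower than the mean of the other groups by a log2 difference of -3.60 ± 0.86 (SE; 95% interval -5.43 to -1.76; limma adjusted p = 0.0436). The call ended in 8 of 10 fits that left out 1 library, those without either library of Axin2:Pdgfra, Axin2 or Wnt2 and those without Pdgfra 1 or Negative 0. Over these fits the difference ran from -4.81 to -2.38, the latter without Wnt2 1, with adjusted p up to 0.798, and with values under 6 raised to 6 the adjusted p was 0.0612.

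Abcc9 codes for the regulatory subunit that joins Kcnj8 in that channel. It read 13.20 and 11.93 in Axin2:Pdgfra, 12.45 and 12.06 in Axin2, 12.12 and 12.90 in Pdgfra, 11.51 and 9.46 in Negative, and 9.01 and 7.92 in Wnt2. Both Wnt2 libraries lay below the other 8, by a log2 difference of -3.49 ± 0.55 (SE, adjusted p = 0.00411). The other inward rectifiers were not called. Kcnj12 read 10.55 and 9.68 in Axin2 and 8.52 in Negative 0, and between 1.0 and 5.08 in the other 7 libraries (F-test adjusted p = 0.0774). Kcnj15, a rectifier of transporting epithelia, ranged from 3.70 in Axin2 2 to 12.20 in Negative 2 (adjusted p = 0.157).

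The K2P family forms background channels that leak potassium at rest. Kcnk3, an acid-sensitive member that helps set the resting potential of pulmonary artery smooth muscle, was lower wherever the Pdgfra label was present. It read 13.44 and 13.34 in Axin2, 12.73 and 11.38 in Negative, 8.85 and 8.43 in Axin2:Pdgfra, 8.83 and 9.04 in Pdgfra, and 8.06 and 7.84 in Wnt2. The 4 libraries of Axin2 and Negative did not overlap with the other 6. The log2 difference was -4.75 ± 0.67 (SE; 95% interval -6.18 to -3.32; limma adjusted p = 0.00217) with the Axin2 label and -3.12 ± 0.67 (-4.55 to -1.69; adjusted p = 0.0227) without it. The first call ended without Axin2 2 (adjusted p = 0.0573), and the second without Axin2 2, Pdgfra 1, Pdgfra 2 or Negative 0 (adjusted p up to 0.14). Wnt2 was lower than the mean of the other groups by a log2 difference of -2.80 ± 0.53 (adjusted p = 0.0125), a call that ended without either Wnt2 library (adjusted p up to 0.196).

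Kcnk1, a weakly conducting K2P member, had another pattern. It read 9.60 and 10.70 in Axin2:Pdgfra, 8.47 and 6.76 in Axin2, 9.18 and 10.34 in Pdgfra, 7.65 and 2.67 in Negative, and 1.95 and 2.06 in Wnt2. The Negative 2 value is the lowest of its library, so that its order against Wnt2 is not known, and both Wnt2 libraries lay under the other 7. The 4 libraries with the Pdgfra label lay above the 4 without it. The Wnt2 difference was -6.16 ± 1.37 (log2, SE; adjusted p = 0.0295). It was -2.59 with values under 6 raised to 6 (adjusted p = 0.156), and it was not called without either library of Axin2, Pdgfra or Wnt2 or without Axin2:Pdgfra 2 (adjusted p up to 0.308). Kcnk2, a stretch-sensitive channel, was floored in both Axin2 and both Negative libraries, and read 5.40 to 9.16 in the other 6 (F-test adjusted p = 0.0601).

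Voltage-gated potassium channels open on depolarisation and bring the membrane back. Kcnq5 belongs to the slow Kcnq family that limits the tone of vascular smooth muscle. It read 11.39 and 12.82 in Axin2, 12.55 and 11.74 in Negative, 6.56 and 6.54 in Axin2:Pdgfra, 2.67 and 6.89 in Pdgfra, and 7.44 and 8.50 in Wnt2. The 4 libraries of Axin2 and Negative lay above the other 6, with no overlap. With the Axin2 label the log2 difference was -5.55 ± 1.27 (SE; 95% interval -8.28 to -2.83; limma adjusted p = 0.0375), and without it -7.36 ± 1.27 (-10.09 to -4.64; adjusted p = 0.00606). With values under 6 raised to 6, the second difference was -5.70 (limma adjusted p = 0.00512). The first call ended without either library of Axin2:Pdgfra, Axin2 or Wnt2 (adjusted p up to 0.309), and the second without Pdgfra 1 (adjusted p = 0.0506).

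Kcnh1 codes for the ether-a-go-go channel, another voltage-gated potassium channel. It read 9.88 and 8.88 in Axin2, 7.89 and 9.28 in Negative, 7.0 and 8.13 in Wnt2, 5.67 and 4.37 in Pdgfra, and 3.36 and 2.06 in Axin2:Pdgfra, where the second is the lowest value of its library. The 4 libraries with the Pdgfra label thus lay below the other 6. With the Axin2 label the difference was -6.67 ± 1.54 (log2, SE; adjusted p = 0.0389), and with values under 6 raised to 6 it was -3.38 (adjusted p = 0.0875). The call also ended without either library of Axin2:Pdgfra, Axin2 or Wnt2 or without Pdgfra 1 (adjusted p up to 0.238).

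Kcnq5 and Kcnh1 were the voltage-gated potassium genes called lower in Axin2:Pdgfra than in Axin2, and the 250 bases before their annotated starts are shown for that reason. The windows come from RefSeq (GRCm38.p6, a later build than that of the deposited values), in lower case with each CG dinucleotide in capitals. Kcnq5 has 2 annotated starts, at chr1:21962651-21962900 and chr1:21961943-21962192, both on the minus strand, and Kcnh1 has 1, at chr1:192190527-192190776 on the plus strand.
Kcnq5, first window: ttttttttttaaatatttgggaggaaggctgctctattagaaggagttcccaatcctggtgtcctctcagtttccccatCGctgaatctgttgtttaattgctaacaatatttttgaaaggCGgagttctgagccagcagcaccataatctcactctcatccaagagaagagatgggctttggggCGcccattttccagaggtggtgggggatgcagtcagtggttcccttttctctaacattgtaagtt
Kcnq5, second window: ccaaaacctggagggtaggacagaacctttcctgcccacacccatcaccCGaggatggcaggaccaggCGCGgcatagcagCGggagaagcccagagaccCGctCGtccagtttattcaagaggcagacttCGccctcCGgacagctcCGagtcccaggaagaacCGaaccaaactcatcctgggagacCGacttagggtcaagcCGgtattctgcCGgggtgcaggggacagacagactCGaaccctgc
Kcnh1: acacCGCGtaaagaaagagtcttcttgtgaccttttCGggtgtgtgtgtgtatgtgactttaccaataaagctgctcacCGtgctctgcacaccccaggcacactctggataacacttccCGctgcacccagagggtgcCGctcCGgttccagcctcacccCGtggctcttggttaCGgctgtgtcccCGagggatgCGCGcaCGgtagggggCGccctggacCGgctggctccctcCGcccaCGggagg
The first Kcnq5 window holds 3 CG dinucleotides, the second 14 and the Kcnh1 window 17, beside a median of 6 over 32851 windows of this length. Fewer CG dinucleotides were found in 29.0%, 70.6% and 76.5% of all windows.

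Kcna1, a fast-opening channel best known from nerve axons, read 8.49 and 8.99 in Axin2 and 10.63 and 9.17 in Negative. In the other 6 libraries it lay between 1.0 and 2.06, at the lowest value in 4 of them, which include both Axin2:Pdgfra libraries and Pdgfra 1. Pdgfra was lower than Negative (adjusted p = 0.0189), with a log2 difference of -8.35 ± 1.73 (SE) that was -3.90 once values under 6 were raised to 6 (adjusted p = 0.0342). The call ended without Pdgfra 1, Pdgfra 2 or Negative 0 (adjusted p up to 0.11). The pericyte and mesothelial lists and the Schwann cell and neuron list were higher in the same 4 libraries, the last with S100b floored in both Negative libraries and Gfra3 in Negative 2, and the part of other cell types in Kcna1 was not tested.

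Kcns3, a silent subunit that modifies other voltage-gated channels, was higher with the Pdgfra label in cells without the Axin2 label. It read 11.17 and 11.37 in Pdgfra, 10.63 and 11.67 in Wnt2, 9.83 and 10.47 in Axin2:Pdgfra, 9.65 and 8.64 in Axin2, and 7.21 and 6.18 in Negative. Both Negative libraries lay below the other 8. Pdgfra minus Negative was 4.58 ± 0.79 (log2, SE; 95% interval 2.90 to 6.26; adjusted p = 0.00589), and the call ended without Pdgfra 1 or Pdgfra 2 (adjusted p up to 0.075).

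Kcnd1, a subunit of rapidly inactivating channels, was floored in both Negative libraries. It read 10.84 and 8.06 in Pdgfra, 8.17 and 11.45 in Axin2:Pdgfra, 8.03 and 7.76 in Axin2, and 6.66 and 7.99 in Wnt2. It was called higher in Pdgfra than in Negative (adjusted p = 0.0233), but not with values under 6 raised to 6 (adjusted p = 0.166) and not without Pdgfra 1 or Pdgfra 2 (adjusted p up to 0.232).

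Kcnh2, the ether-a-go-go-related channel of cardiac repolarisation, was called in the F-test (adjusted p = 0.0373) and in none of the contrasts. It read 7.16 and 5.55 in Negative and between 8.68 and 10.58 in the other 8 libraries, and its call held in 1 of 10 fits that left out 1 library.

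The large-conductance calcium-activated potassium (BK) channel is made of the pore subunit Kcnma1 and, in smooth muscle, the accessory subunit Kcnmb1, which raises its sensitivity to calcium. Kcnmb1 read 11.69 and 11.83 in Axin2, 9.94 and 5.97 in Negative, 7.48 and 7.93 in Wnt2, 5.45 and 1.16 in Pdgfra, and 2.70 and 2.06 in Axin2:Pdgfra. Both Axin2 libraries lay above the other 8, and the 4 libraries with the Pdgfra label below the other 6. With the Axin2 label the difference was -9.38 ± 1.83 (log2, SE; 95% interval -13.30 to -5.46; adjusted p = 0.0153), and -5.76 with values under 6 raised to 6 (adjusted p = 0.0219). The call ended without Axin2:Pdgfra 2, Axin2 1 or Axin2 2 (adjusted p up to 0.161). Smooth muscle markers were highest in the same 2 Axin2 libraries, as given above, and their part in the Kcnmb1 level was not tested.

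Kcnma1 itself was floored in both Negative and both Wnt2 libraries. It read 10.76 and 7.10 in Axin2, 8.25 and 6.01 in Axin2:Pdgfra, and 8.68 and 5.40 in Pdgfra, groups that overlap with each other. In those 4 libraries Kcnmb1 read 5.97 to 9.94, above the lowest value of each. Its F-test call (adjusted p = 0.0483) held in 0 of 10 fits that left out 1 library and was lost with values under 6 raised to 6 (adjusted p = 0.412). Kcnt2, a sodium-activated channel, was floored in Axin2 1 and read 8.69 in Axin2 2, so its group means carry no call (F-test adjusted p = 0.259).

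Accessory genes of potassium channels were not called. Kcne4, an inhibitor of Kcnq channels, read 10.90 and 10.77 in Axin2:Pdgfra, 10.13 and 9.39 in Axin2, 10.04 and 9.71 in Pdgfra, 8.67 and 5.97 in Negative, and 8.91 and 5.46 in Wnt2 (F-test adjusted p = 0.153). Kcnip4, a modulator of Kcnd channels, ranged from 1.75 to 10.81 (adjusted p = 0.31). Kcnrg, a regulator that forms no pore, ranged from 2.45 to 7.61 (adjusted p = 0.795).

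**Figure D4:**
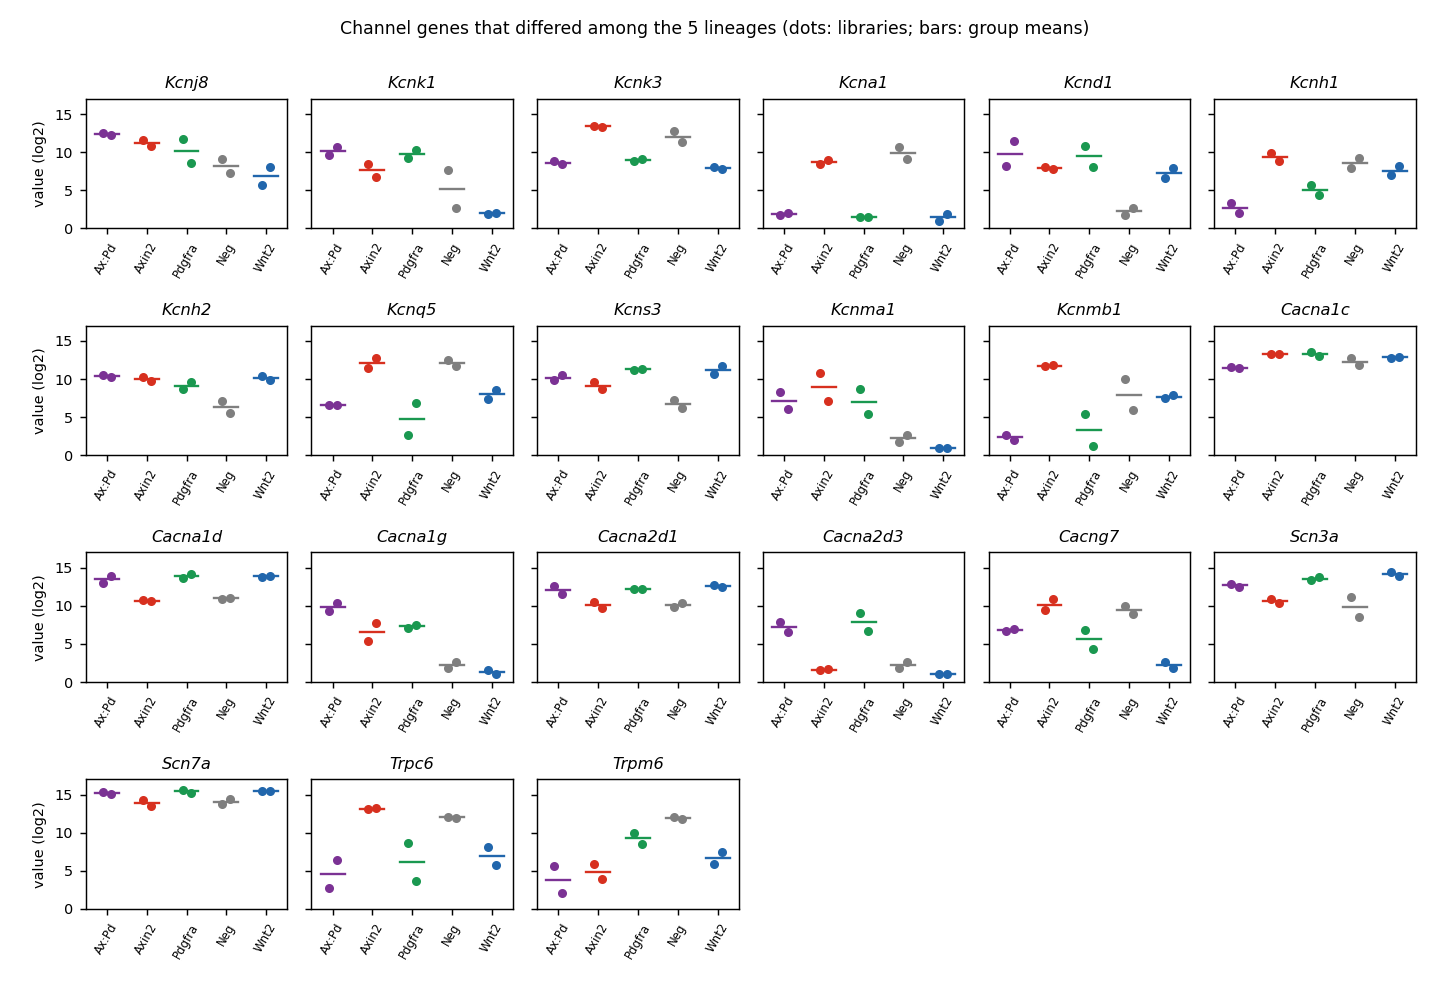
Deposited value, read as log2 (y axis), of 21 of the 23 channel genes called in the F-test. The x axis gives the 5 lineages (Ax:Pd is Axin2:Pdgfra, Neg is Negative), with 1 dot per library and a bar at the group mean. Kcnk3 and Kcnq5 are high in Axin2 and Negative, Cacna1d and Scn7a are high in the other 3 lineages, and Cacng7 is lowest in Wnt2.

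Voltage-gated calcium channels are built around an alpha1 pore subunit. Cacna1d and Cacna1c are the alpha1 subunits of L-type channels, which open on depolarisation, and Cacna1d opens at more negative potentials. Cacna1d read 13.05 and 13.98 in Axin2:Pdgfra, 13.63 and 14.14 in Pdgfra, 13.80 and 13.93 in Wnt2, 10.75 and 10.59 in Axin2, and 10.90 and 11.08 in Negative. The 6 libraries of the first 3 groups lay at 13.05 or above and the other 4 at 11.08 or below. The log2 difference was 2.84 ± 0.39 (SE; 95% interval 2.0 to 3.68; limma adjusted p = 0.00193) with the Axin2 label and 2.90 ± 0.39 (2.06 to 3.73; adjusted p = 0.00141) without it. The value ran from 2.38 to 3.30 and from 2.64 to 3.15 as single libraries were left out, and the call held in all 10 fits of each but not, as given above, without the trended and robust variance prior. Wnt2 was higher than the mean of the other groups by 1.60 ± 0.31 (adjusted p = 0.0141), a call that ended without either Wnt2 library (adjusted p up to 0.279).

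Cacna1c, the main L-type subunit of smooth muscle, differed from Cacna1d in direction. It read 11.53 and 11.42 in Axin2:Pdgfra, 13.26 and 13.28 in Axin2, 13.60 and 12.99 in Pdgfra, 12.75 and 11.78 in Negative, and 12.78 and 12.87 in Wnt2. Both Axin2:Pdgfra libraries lay below the other 8. Axin2:Pdgfra minus Axin2 was -1.79 ± 0.39 (log2, SE; 95% interval -2.64 to -0.95; adjusted p = 0.0308), whereas Pdgfra minus Negative was 1.03 ± 0.39 and not called (adjusted p = 0.192). The first call ended without either library of Axin2:Pdgfra, Axin2 or Wnt2 (adjusted p up to 0.205). The interaction of the 2 labels was called for 0 channel genes, as given above, so a different effect of the Pdgfra label with and without the Axin2 label was not shown for Cacna1c.

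Cacna1g, the alpha1 subunit of a T-type channel that opens at negative potentials, was called in the F-test (adjusted p = 0.0187). It read 9.39 and 10.34 in Axin2:Pdgfra, 5.40 and 7.69 in Axin2, and 7.12 and 7.53 in Pdgfra, was floored in both Negative libraries, and read 1.55 and 1.0 in Wnt2. Both Axin2:Pdgfra libraries lay above the other 8. The call ended without Axin2:Pdgfra 2, Wnt2 1 or Wnt2 2 (adjusted p up to 0.0756) and with values under 6 raised to 6 (adjusted p = 0.0572).

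Auxiliary subunits bring the pore to the membrane and tune its gating. Cacna2d1, an alpha2delta subunit and the target of gabapentin, read 12.60 and 11.52 in Axin2:Pdgfra, 12.24 and 12.17 in Pdgfra, 12.69 and 12.42 in Wnt2, 10.56 and 9.76 in Axin2, and 9.87 and 10.40 in Negative. The groups split as for Cacna1d, with 6 libraries at 11.52 or above and 4 at 10.56 or below. Pdgfra minus Negative was 2.07 ± 0.52 (log2, SE; 95% interval 0.95 to 3.18; adjusted p = 0.0476), and Axin2:Pdgfra minus Axin2 was 1.91 ± 0.52 and not called (adjusted p = 0.0753). The first call held in 2 of 10 fits, those without an Axin2:Pdgfra library (adjusted p up to 0.234 in the others).

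Cacna2d3, a related subunit, was floored in all 6 libraries of Axin2, Negative and Wnt2 and read 7.87 and 6.54 in Axin2:Pdgfra and 9.04 and 6.74 in Pdgfra. Its F-test call (adjusted p = 0.0487) held in 0 of 10 fits that left out 1 library. Cacng7, a gamma subunit also known to act on glutamate receptors, read 9.44 and 10.91 in Axin2, 10 and 8.97 in Negative, 6.68 and 7.01 in Axin2:Pdgfra, 6.89 and 4.37 in Pdgfra, and 2.64 and 1.84 in Wnt2. Both Wnt2 libraries lay below the other 8, by -5.79 ± 1.21 (log2, SE; adjusted p = 0.0226), which became -2.24 with values under 6 raised to 6 (adjusted p = 0.191). The call also ended without Axin2 2, Wnt2 1 or Wnt2 2 (adjusted p up to 0.273). Cacnb2, the beta subunit of cardiac and smooth muscle L-type channels, stayed between 10.93 and 12.85 in all 10 libraries and was not called (F-test adjusted p = 0.209).

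Sodium channel alpha subunits form the pore that carries the rapid upstroke of the action potential. Scn7a, an exception in the family that senses extracellular sodium and not voltage, was high in every library. It read 15.33 and 15.09 in Axin2:Pdgfra, 15.58 and 15.27 in Pdgfra, 15.50 and 15.52 in Wnt2, 14.33 and 13.49 in Axin2, and 13.74 and 14.40 in Negative. The first 6 libraries lay at 15.09 or above and the last 4 at 14.40 or below. The log2 difference was 1.3 ± 0.30 (SE; 95% interval 0.66 to 1.94; limma adjusted p = 0.0382) with the Axin2 label and 1.36 ± 0.30 (0.72 to 2.0; adjusted p = 0.0266) without it. The first call held in 3 of 10 fits that left out 1 library, those without Axin2 1, Negative 0 or Negative 2 (adjusted p up to 0.343 in the others), and the second ended without Pdgfra 1, Pdgfra 2 or Negative 0 (adjusted p up to 0.212).

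Scn3a, a sodium channel of the developing nervous system, split the same groups. It read 12.91 and 12.53 in Axin2:Pdgfra, 13.39 and 13.74 in Pdgfra, 14.49 and 13.91 in Wnt2, 10.87 and 10.33 in Axin2, and 11.14 and 8.57 in Negative. Every library of the first 3 groups lay above every library of the other 2. Pdgfra minus Negative was 3.71 ± 0.63 (log2, SE; 95% interval 2.36 to 5.06; adjusted p = 0.00573), and 2.43 without Negative 2, and the call ended without Pdgfra 1 or Pdgfra 2 (adjusted p up to 0.0812). Wnt2 was higher than the mean of the other groups by 2.51 ± 0.50 (adjusted p = 0.0167), a call that ended without Pdgfra 1, Wnt2 1 or Wnt2 2 (adjusted p up to 0.356). The sources used here do not say how reads shared by near-identical sodium channel genes were counted.

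None of the other sodium channel genes was called. Of the beta subunits, which modify gating, Scn3b ranged from 9.50 to 13.72 (adjusted p = 0.0709) and Scn2b from 1.0 to 7.66 (adjusted p = 0.389).

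TRP channels are cation channels opened by lipids, temperature, stretch and other signals. Trpc6 forms channels opened by diacylglycerol, through which calcium enters smooth muscle and other cells after receptor stimulation. Trpc6 read 13.12 and 13.20 in Axin2, 12.10 and 11.90 in Negative, 8.13 and 5.77 in Wnt2, 8.68 and 3.62 in Pdgfra, and 2.70 and 6.38 in Axin2:Pdgfra. The 4 libraries of Axin2 and Negative lay at 11.90 or above and the other 6 at 8.68 or below. Axin2:Pdgfra minus Axin2 was -8.62 ± 1.58 (log2, SE; 95% interval -12.01 to -5.23; limma adjusted p = 0.0107), and Pdgfra minus Negative was -5.85 ± 1.58 and not called (adjusted p = 0.0665). With values under 6 raised to 6, the first difference was -6.97 (limma adjusted p = 0.00415). The first call ended without Axin2:Pdgfra 1, Axin2 1 or Axin2 2 (adjusted p up to 0.144).

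The 250 bases before the start of Trpc6 are shown because they hold a CArG box, the motif that serum response factor binds in many smooth muscle genes. This gene was chosen for display after its values were seen. The window lies at chr9:8543892-8544141 on the plus strand (RefSeq, GRCm38.p6), with the match in capitals, 122 to 113 bases before the start.
Trpc6: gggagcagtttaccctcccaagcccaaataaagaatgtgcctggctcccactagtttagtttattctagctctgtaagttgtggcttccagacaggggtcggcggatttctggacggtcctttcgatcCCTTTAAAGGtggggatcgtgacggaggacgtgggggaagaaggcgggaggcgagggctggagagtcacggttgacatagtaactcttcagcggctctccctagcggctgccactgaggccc
On both strands, a CArG box was found in 1.47% of 32851 windows of 250 bases and in 1 of the 21 windows of the 16 called channel genes that had one. The GC box letters GGGCGG were found in 32.7% of all windows and 11 of the 21, and the letters TATAAA in 12.4% and 1 of the 21. The TATAAA letters can fall inside a CArG box, and do not in the Trpc6 match. A match is a description of the letters and not of a bound site.

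Trpc1, which joins other TRPC subunits, read between 8.63 and 12.26 in all 10 libraries and was not called (adjusted p = 0.294).

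Trpm6, a magnesium-permeable channel of epithelia, read 12.06 and 11.82 in Negative, 9.99 and 8.50 in Pdgfra, 5.93 and 7.43 in Wnt2, 5.91 and 3.87 in Axin2, and 5.57 and 2.06 in Axin2:Pdgfra. Both Negative libraries lay above the other 8 (F-test adjusted p = 0.0189), as did their alveolar type 1 marker levels, and the part of epithelial RNA in Trpm6 was not tested. The call ended without Pdgfra 1, Negative 0 or Negative 2 (adjusted p up to 0.0659). Trpm7, its ubiquitous relative, stayed between 11.40 and 12.72 in all 10 libraries (adjusted p = 0.383). Trpm5, a channel of taste and tuft cells, read 9.34 and 9.44 in Pdgfra and 7.40 and 7.62 in Wnt2, was floored in both Negative libraries, and differed by more than 5 between the libraries of Axin2:Pdgfra and of Axin2 (adjusted p = 0.202).

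None of the 3 TRPV genes was called. Trpv3, a warmth-sensitive channel, was floored in both Axin2 libraries and read 4.32 to 8.64 in the other 8 (F-test adjusted p = 0.0772). Trpv2 read 9.43 and 10.96 in Axin2, 8.50 and 9.65 in Negative, 5.94 and 8.13 in Axin2:Pdgfra, 7.01 and 4.93 in Pdgfra, and 8.31 and 7.40 in Wnt2 (adjusted p = 0.198). Trpv4, a channel studied in stretch responses of lung cells, ranged from 1.70 in Axin2:Pdgfra 1 to 8.67 in Negative 2, with differing libraries within Axin2:Pdgfra (1.70 and 6.31), and was not called (adjusted p = 0.386). Kcnn4, Kcnq1ot1, Cacna1h and Trpa1 were not analysed here.

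Genes that act with these channels were counted from lists of partners, calcium stores and pumps. The alternative fits were read gene by gene for the channel genes alone. Whether the calls in these lists, that of Abcc9 included, hold under those fits was therefore not tested. Of 13 tested channel partners, 4 were lower in Wnt2 (Abcc9, Ank2, Cav1 and Gem), beside 1.44% of all genes, and 1, Cav1, was lower in Axin2 than in Negative, beside 0.36%. Ank2 codes for an ankyrin that anchors channels at the membrane and Gem for an inhibitor of calcium channel traffic. Ank2 read 4.83 and 4.65 in Wnt2 and between 8.05 and 12.31 in the other 8 libraries, a difference of -5.11 ± 0.78 (log2, SE; adjusted p = 0.00325). Cav1, the caveolin of membrane pits, read 15.47 in both Negative libraries and 12.06 to 14.53 elsewhere, and its Wnt2 difference was -1.52 ± 0.30 (adjusted p = 0.0174). Gem had a Wnt2 difference of -2.14 ± 0.51 (adjusted p = 0.0422). The median difference over the 13 partners in Wnt2 was -1.52, beside 0.13 over all genes.

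Of 21 genes of store-operated entry and intracellular calcium release, 1 was lower in Axin2:Pdgfra than in Axin2, beside 1.38% of all genes, and 1 higher in Pdgfra than in Negative, beside 2.03%. The F-test called 5 of the 21 (Itpr2, Pkd2, Ryr2, Ryr3 and Tmem38b), beside 8.2% of all genes. The gene lower in Axin2:Pdgfra was Itpr2, an inositol trisphosphate receptor of the calcium store, which read 10.11 and 9.54 in Axin2:Pdgfra, 12.46 and 12.77 in Axin2 and 11.11 to 12.30 in the other 6 libraries. Its difference was -2.79 ± 0.48 (log2, SE; adjusted p = 0.00654). The gene higher in Pdgfra was Ryr3, a ryanodine receptor, floored in both Negative libraries. Of 15 calcium pumps and exchangers, limma called 0 in the F-test (3 at an unadjusted p under 0.05) and 0 in each of the 5 contrasts between groups (1 to 4 at that level).

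The sodium-potassium pump maintains the gradients that all these channels use. Among its genes Atp1b2, a beta subunit, read 14.04 and 13.97 in Axin2, 12.98 and 11.35 in Negative, 11.76 and 11.49 in Axin2:Pdgfra, 9.16 and 10.60 in Pdgfra, and 9.68 and 8.39 in Wnt2. It was lower in Wnt2 by a log2 difference of -2.88 ± 0.52 (SE; adjusted p = 0.0098).

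Of 32 other ion channel genes tested, 4 were lower in Pdgfra than in Negative, beside 0.875% of all genes, and 1 lower in Axin2:Pdgfra than in Axin2, beside 1.38%. The 4 were Scnn1a and Scnn1g, subunits of the epithelial sodium channel, Ano1, a calcium-activated chloride channel, and Piezo1, a stretch-gated channel. Scnn1a read 15.50 and 14.94 in Negative and 8.90 to 12.84 in the other 8 libraries, with Pdgfra minus Negative at -3.41 ± 0.68 (log2, SE; adjusted p = 0.0152). Ano1 read 12.96 and 13.67 in Negative and 5.55 to 11.82 elsewhere (-4.55 ± 1.13, adjusted p = 0.0452). The differences of Scnn1g and Piezo1 were -3.36 ± 0.77 (adjusted p = 0.0328) and -2.08 ± 0.50 (adjusted p = 0.0387). Negative also had the highest alveolar type 1 markers, as given above, and the part of epithelial RNA in these genes was not tested. The gene lower with both labels was P2rx1, the ATP-gated channel of smooth muscle, floored in both Axin2:Pdgfra libraries and read at 9.12 and 9.10 in Axin2.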

How the data were processed

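The files hold 1 value per Ensembl gene for 10 libraries, 2 from each of 5 sorted lineages. They were deposited as log2 values of a normalised signal; the log2 scale and the normalisation were inferred from the values, whose library medians lie between 9.10 and 9.11 and whose highest value is 19.25. STAR, limma and mm9 are named in the submitters' processing notes; the sources used here give no versions, counting or filters. Read depth is unknown, so no counting error can be given. Symbols were matched for 14720 of 14854 genes, and 79 met the channel rule. Members and lists were chosen with earlier results of these data known.

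Genes with at least 6 in at least 2 libraries (14177) were fitted with limma (3.58.1, R 4.3.3) as group means with a trended, robust variance prior and 5 residual degrees of freedom; tests were two-sided and p-values were adjusted by Benjamini-Hochberg over all these genes. The procedure was tested on simulated data. Described with values were every member with an adjusted p under 0.05 in the F-test or a contrast, up to 3 further members per family with the smallest F-test p, and a fixed list of members known from mural, epithelial or fibroblast cells. Tried as alternatives were no filter, a filter at 8, values under 6 raised to 6, no trend and robust prior, library weights, a replicate block, fits of the contrast's groups alone, and leaving out each library. Promoter windows came from RefSeq (GRCm38.p6) and were matched by symbol. Some genes that met the rule are counted but not reported here by name.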

Additional observations from a re-analysis of the deposited data

How the results depend on the processing

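The 2 Cacna1d calls for the Pdgfra label were the contrast calls, of 24, that held in all 10 fits without 1 library; of the 23 F-test calls, 7 did. Both Cacna1d calls, and 5 of these 7, ended without the trended, robust prior. No called difference changed direction under the settings tried. With values under 6 raised to 6, Axin2 minus Negative had 1 call and Wnt2 3 (7 as reported). Without the trended, robust prior the F-test had 8 calls, which hold 7 of the 23 as reported, Axin2:Pdgfra minus Axin2 4 (2 of the 8), Pdgfra minus Negative 3 (2 of the 9) and Wnt2 3 (1 of the 7). With library weights Pdgfra minus Negative had 4 calls and Wnt2 16. In fits of the contrast's groups alone, Axin2:Pdgfra minus Axin2 had 5 calls and Axin2 minus Negative 1. Leaving out 1 library gave 10 to 22 F-test calls, 1 to 10 for Axin2:Pdgfra minus Axin2, 2 to 10 for Pdgfra minus Negative, 0 to 1 for Axin2:Pdgfra minus Pdgfra, 0 to 3 for Axin2 minus Negative, 0 to 8 for Wnt2 and 0 to 1 for the interaction. With the replicate block, Pdgfra minus Negative had 4 calls, Axin2 minus Negative 2, the F-test 19, Axin2:Pdgfra minus Axin2 10 and Wnt2 6. Libraries with 1 number in 2 groups deviated with correlations of -0.061 to 0.028, with Negative left out. Whether a number stands for a shared animal or batch cannot be told from these values. Why the counts changed between settings was not tested, except that leaving out a library leaves fewer samples. The share of all genes called in each of these fits is not given here. Whether the changes are particular to channel genes is therefore not known. Unknown depth limits all genes near the lowest values.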

Other observations

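Several channel genes were high in 1 library of a group and at or near the lowest value in the other. The 2 libraries lay at least 6 apart on the log2 scale for 1 of 74 channel genes in Axin2:Pdgfra (Trpm5), 1 in Axin2 (Kcnt2), 5 in Pdgfra (Cacna2d4, Kcna3, Kcnj5, Kcnn1 and Kcnn3), 3 in Negative (Cacna1e, Kcnj5 and Kcnq1) and 2 in Wnt2 (Cacna1e and Cacna2d4). The share among all genes tested was 2.95%, 1.56%, 2.19%, 3.56% and 0.748% in the same order. Cacna2d4, an auxiliary calcium channel subunit, read 9.85 and 11.20 in Negative, 1.55 and 8.76 in Pdgfra and 1.0 and 9.34 in Wnt2. Trpm2, an oxidant-sensitive channel of immune cells, read 9.74 in Negative 2 and between 1.55 and 5.0 in the other 9 libraries. These genes were chosen after their values were seen.

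Kcna2, a relative of Kcna1, read 12.20 and 12.51 in the Wnt2 libraries and between 7.14 and 11.30 in the other 8, whereas Kcna1 read 1.0 and 1.95 in Wnt2. Cacna1a, the pore of P/Q-type calcium channels, read 7.61 to 10.46 in Axin2:Pdgfra and Axin2, 8.48 and 6.33 in Negative, and 1.55 and 1.95 in Pdgfra. Neither gene was called in any comparison, and both were chosen after their values were seen.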
